A study of Mus musculus with 12 samples.

Results

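The genes Meis1, Meis2, Meis3, Pbx2 and Pbx3 encode cofactors of the Hox transcription factors, and the chromatin accessibility of their loci was compared between fibroblasts from mouse embryos (MEFs) and embryonic stem cells of the mouse (mESCs). The members were all peaks that overlapped 1 of the 5 gene bodies, as annotated in GENCODE M21 on the GRCm38 assembly, or the 20 kb on either side of it. This rule returned 54 of 91354 peaks in the set called on BGI data and 54 of 87027 peaks in the set called on Illumina data. In the BGI set, 21 peaks lay at Meis1, 14 at Meis2, 4 at Meis3, 10 at Pbx2 and 5 at Pbx3. In the Illumina set, the counts were 19, 16, 4, 9 and 6 in the same order. The rule used position only, and all member peaks passed the filter on low counts.

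The assay was Omni-ATAC-seq, in which the Tn5 transposase cuts accessible DNA and tags the fragments for sequencing. MEFs had been sorted as THY1+ cells and mESCs as THY1-/SSEA1+/EPCAM+ cells, and both came from a C57/Bl6 background, and the labels give no further allele or agent for either group. Each cell type gave 3 biological replicates. The MEF libraries carry the numbers 1, 2 and 4, and the mESC libraries the numbers 1, 3 and 5. Each of these 6 libraries was read on the DNBSEQ-G400 (BGI) and on the HiSeqX10 (Illumina), which made 4 groups of 3 samples. The platforms therefore shared their libraries and were not independent replicates of each other, and no number paired a MEF library with a mESC library. In bulk samples such as these, a smaller share of cells with an open site and a less open site in every cell cannot be told apart.

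Reads in peaks ranged from 15860985 to 21662775 per sample over the BGI and Illumina sets, and every MEF sample was deeper than every mESC sample. Values are given as CPM, the reads of a peak in a sample divided by that sample's reads in all peaks and brought to the usual CPM scale. The cell labels were checked on promoter peaks of marker genes on BGI. The fibroblast genes Thy1, Col1a1, Col3a1 and Twist2 had means of 14.9 to 35.0 CPM in MEFs and 0.699 to 11.9 CPM in mESCs. The pluripotency genes Nanog, Esrrb and Zfp42 and the epithelial adhesion gene Epcam had means of 0.337 to 4.55 CPM in MEFs and 15.1 to 53.1 CPM in mESCs. No promoter peak was found for Ptprc, Cdh5 or Krt5, markers of blood, endothelium and keratinocytes.

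MEIS and PBX proteins belong to the TALE class of homeodomain proteins, which carry a loop of extra residues in the homeodomain. PBX proteins bind DNA together with Hox proteins and sharpen their choice of site, and MEIS proteins bind PBX and Hox proteins and help to keep PBX in the nucleus. These factors act in body patterning, limb and heart development and blood formation, and Meis1 is also known for its part in leukaemia.

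The introns of Meis1 held the largest differences, and 7 of the 8 intronic Meis1 peaks in the BGI set held the letters TGANTCA, the core that AP-1 factors (the FOS and JUN families) bind. Of all 30514 intronic peaks of the set, of either direction, 32.2% held these letters. The count in the Meis1 introns was made after the values were seen. Over all 54 member peaks, the share was 20.4% (all peaks 25.2%). The central bases of 6 of the 7 intronic Meis1 peaks with these letters are printed here from the GRCm38 plus strand, with TGANTCA in capitals. The 64.9, 91.4 and 98.2 kb peaks were picked for their letters after their values were seen. Each is named by its distance downstream of the Meis1 gene start, at chr11:19018985 on the minus strand. The first 5 were more accessible in MEFs and the last was more accessible in mESCs.
Meis1 29.8 kb, chr11:18989063-18989263: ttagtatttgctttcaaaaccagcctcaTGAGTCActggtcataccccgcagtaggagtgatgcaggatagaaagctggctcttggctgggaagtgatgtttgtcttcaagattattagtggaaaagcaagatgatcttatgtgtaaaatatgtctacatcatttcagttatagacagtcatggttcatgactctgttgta
Meis1 64.9 kb, chr11:18954012-18954212: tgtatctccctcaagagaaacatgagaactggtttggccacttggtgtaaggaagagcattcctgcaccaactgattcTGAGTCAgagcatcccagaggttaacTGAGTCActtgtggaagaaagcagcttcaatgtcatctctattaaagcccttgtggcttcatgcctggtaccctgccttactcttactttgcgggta
Meis1 81.1 kb, chr11:18937789-18937989: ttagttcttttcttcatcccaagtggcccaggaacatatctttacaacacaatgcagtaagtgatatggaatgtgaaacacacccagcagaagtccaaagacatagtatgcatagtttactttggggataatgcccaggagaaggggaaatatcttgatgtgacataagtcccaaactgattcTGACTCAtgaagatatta
Meis1 91.4 kb, chr11:18927445-18927645: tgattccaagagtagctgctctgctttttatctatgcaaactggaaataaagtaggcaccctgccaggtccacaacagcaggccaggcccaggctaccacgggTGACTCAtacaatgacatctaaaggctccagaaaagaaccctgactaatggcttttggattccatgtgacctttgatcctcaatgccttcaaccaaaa
Meis1 98.2 kb, chr11:18920734-18920934: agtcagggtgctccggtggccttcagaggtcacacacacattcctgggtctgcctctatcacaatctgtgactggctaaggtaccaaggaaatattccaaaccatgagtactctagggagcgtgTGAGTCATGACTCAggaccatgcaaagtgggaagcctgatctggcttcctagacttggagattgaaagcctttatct
Meis1 61.4 kb, chr11:18957502-18957702: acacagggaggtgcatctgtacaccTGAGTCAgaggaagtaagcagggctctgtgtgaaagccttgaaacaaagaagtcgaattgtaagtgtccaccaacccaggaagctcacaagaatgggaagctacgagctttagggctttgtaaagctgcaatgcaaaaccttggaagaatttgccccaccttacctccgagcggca
The 64.9 kb peak held 2 copies and the 98.2 kb peak held 2 that directly adjoin. The letters alone did not separate the directions, since the peak that was higher in mESCs held them too.

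Across the 54 member peaks on BGI, 12 were called higher in mESCs (background 40.9% of all peaks) and 26 were called lower in mESCs (background 43.2%). A call required an adjusted p below 0.05 in edgeR's quasi-likelihood test over all peaks of the set. The median log2 fold change of mESC over MEF was -0.35 over the members and -0.08 over all peaks tested. With library sizes set to the down-sampled depth instead, the median of all peaks moved to 0.06. The member peaks therefore had a smaller share of higher calls (22.2%) and a share of lower calls (48.1%) near the background. The 3 MEF and the 3 mESC samples did not overlap at 42 of the 54 peaks (background 85.1%), and 23 peaks were called with a change of at least 1 on the log2 scale, 10 higher and 13 lower (background 63.0%).

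On Illumina, 11 of 54 member peaks were called higher in mESCs (background 42.1%) and 29 were called lower (background 42.4%). The median log2 fold change was -0.43 over the members and -0.03 over all peaks. The samples did not overlap at 45 of the 54 peaks (background 85.6%), and 20 passed a change of at least 1, 9 higher and 11 lower (background 61.8%).

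The counts of higher and lower calls varied between loci and are read beside the shares over all peaks. At Meis1 on BGI, 1 peak was called higher in mESCs (4.76%, all peaks 40.9%) and 14 were called lower (66.7%, all peaks 43.2%). The counts on Illumina were 2 (10.5%, all peaks 42.1%) and 14 (73.7%, all peaks 42.4%). Meis2 had 5 higher and 5 lower on BGI (35.7% each), and 4 and 5 on Illumina. Meis3 had 2 higher and 1 lower on both platforms. Pbx2 had 2 higher and 4 lower on BGI, and 1 and 6 on Illumina, while Pbx3 had 2 and 2 on BGI, and 2 and 3 on Illumina. Without Meis1, the other 4 loci together had 11 higher (33.3%) and 12 lower (36.4%) of 33 peaks on BGI. On Illumina they had 9 (25.7%) and 15 (42.9%) of 35. Their share of lower calls was thus below that of all peaks on BGI and near it on Illumina. Their share of higher calls was below that of all peaks on both platforms. Most of the excess of lower over higher calls on BGI came from Meis1. The differences between loci were not tested.

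**Figure D1:**
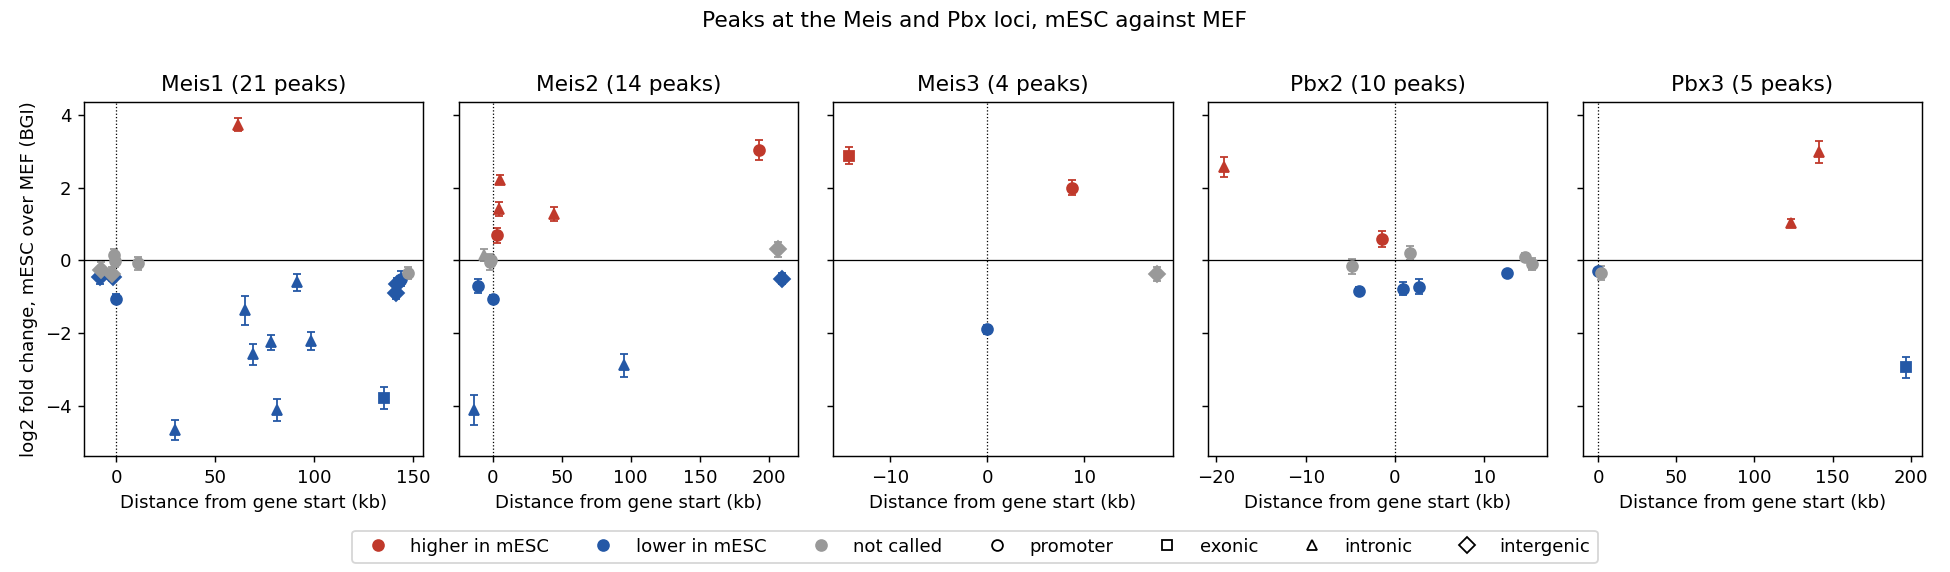
Log2 fold change of mESC over MEF on BGI (vertical axis, error bars are SE) for each member peak against its distance from the gene start in kb (horizontal axis, positive downstream), with 1 panel per locus. Colours give the call and symbols the annotation of the peak, and a single peak of Meis1 rises to 3.73 among intronic peaks that fall as low as -4.67.

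The member peaks were also counted by their position. A peak was counted as a promoter peak when it lay within 1 kb of any annotated transcription start site, and otherwise by the position of its centre. Of the 25 promoter peaks on BGI, 14 were called (72.3% of all promoter peaks) and 5 were called with a change of at least 1 on the log2 scale (34.1%). Of the 17 intronic peaks, 16 were called (90.7% of all intronic peaks) and 15 with a change of at least 1 (79.3%). Their median size of change of 2.25 was close to the 2.59 of all intronic peaks. Of the 9 intergenic peaks, 5 were called (89.3% of all intergenic peaks) and 0 with a change of at least 1 (75.9%), and their median size was 0.47 against 2.65 over all intergenic peaks. Of these 9, 6 lay at the Meis1 locus. The 3 exonic peaks were all called (86.5% of all exonic peaks), 1 higher and 2 lower. The intronic calls were thus near the share of all peaks of that kind. Large changes were fewer at the promoter members and at the intergenic members, the latter mostly from Meis1. These are descriptions of the member peaks, and the contexts were not tested against each other.

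The strongest promoter peak of each of the 5 genes was more accessible in MEFs. Among these 5 peaks, that of Meis3, a member of the MEIS family, had the largest difference. This peak, chr7:16174865-16175365, had 36.6, 35.9 and 39.5 CPM in MEFs 1, 2 and 4 and 12.4, 10.1 and 9.01 CPM in mESCs 1, 3 and 5 on BGI. Every MEF sample stood above every mESC sample. The log2 fold change was -1.90 (SE 0.12, adjusted p = 1.9e-10, edgeR). On Illumina the matched peak, which covers at least 50% of the BGI peak, had a log2 fold change of -1.93 (SE 0.11).

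Meis1 acts in blood stem cells and the heart. Its promoter peak, chr11:19018777-19019277, had 24.9, 25.8 and 27.3 CPM in MEFs and 12.2, 13.96 and 13.2 CPM in mESCs on BGI. The groups did not overlap, and the log2 fold change was -1.05 (SE 0.11, adjusted p = 1.39e-07). Next to it, described after their values were seen, the peaks chr11:19019455-19019955 and chr11:19019715-19020215, which overlap each other and share reads, had log2 fold changes of -0.02 (adjusted p = 0.909) and 0.16 (adjusted p = 0.373). A peak 1.51 kb upstream, chr11:19020249-19020749, was again lower in mESCs, with a log2 fold change of -0.47 (SE 0.11, adjusted p = 6.56e-04).

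Meis2, which acts in the neural crest, limb and palate, has many annotated start sites. The peak at its most upstream start site, chr2:116065476-116065976, had 23.9, 24.01 and 24.1 CPM in MEFs and 12.8, 12.1 and 11.2 CPM in mESCs. The log2 fold change of -1.06 (SE 0.12, adjusted p = 1.78e-07) was nearly that of Meis1. The peak at an internal start site 193 kb downstream, chr2:115872797-115873297, went the other way. It had 1.02, 0.944 and 2.14 CPM in MEFs and 11.2, 9.93 and 13.8 CPM in mESCs, a log2 fold change of 3.02 (SE 0.27, adjusted p = 1.15e-08).

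The Pbx promoters differed less. Pbx2, a broadly expressed PBX gene, had 11.8, 11.5 and 13.0 CPM in MEFs and 6.75, 6.50 and 9.01 CPM in mESCs at the promoter peak chr17:34591901-34592401, with a log2 fold change of -0.78 (SE 0.17, adjusted p = 3.31e-04). With the Illumina samples on this same peak it was -0.44 (adjusted p = 0.00954). In the mESC peak set merged over the platforms, another Pbx2 promoter peak, chr17:34592702-34593210, was stronger in mESCs. Its mean on BGI was 10.55 CPM, against 7.50 CPM at the peak chr17:34591896-34592401. Pbx3, which is needed for the brainstem control of breathing, had 41.9, 46.0 and 37.2 CPM in MEFs and 35.9, 35.6 and 34.5 CPM in mESCs at chr2:34372941-34373441. The groups did not overlap, but the gap between the lowest MEF and the highest mESC sample was small. The log2 fold change was -0.31 (SE 0.10, adjusted p = 0.00904), and the call was lost without MEF 1 (adjusted p = 0.0639), without MEF 2 (adjusted p = 0.0703) and with library sizes at the down-sampled depth (adjusted p = 0.18).

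**Figure D2:**
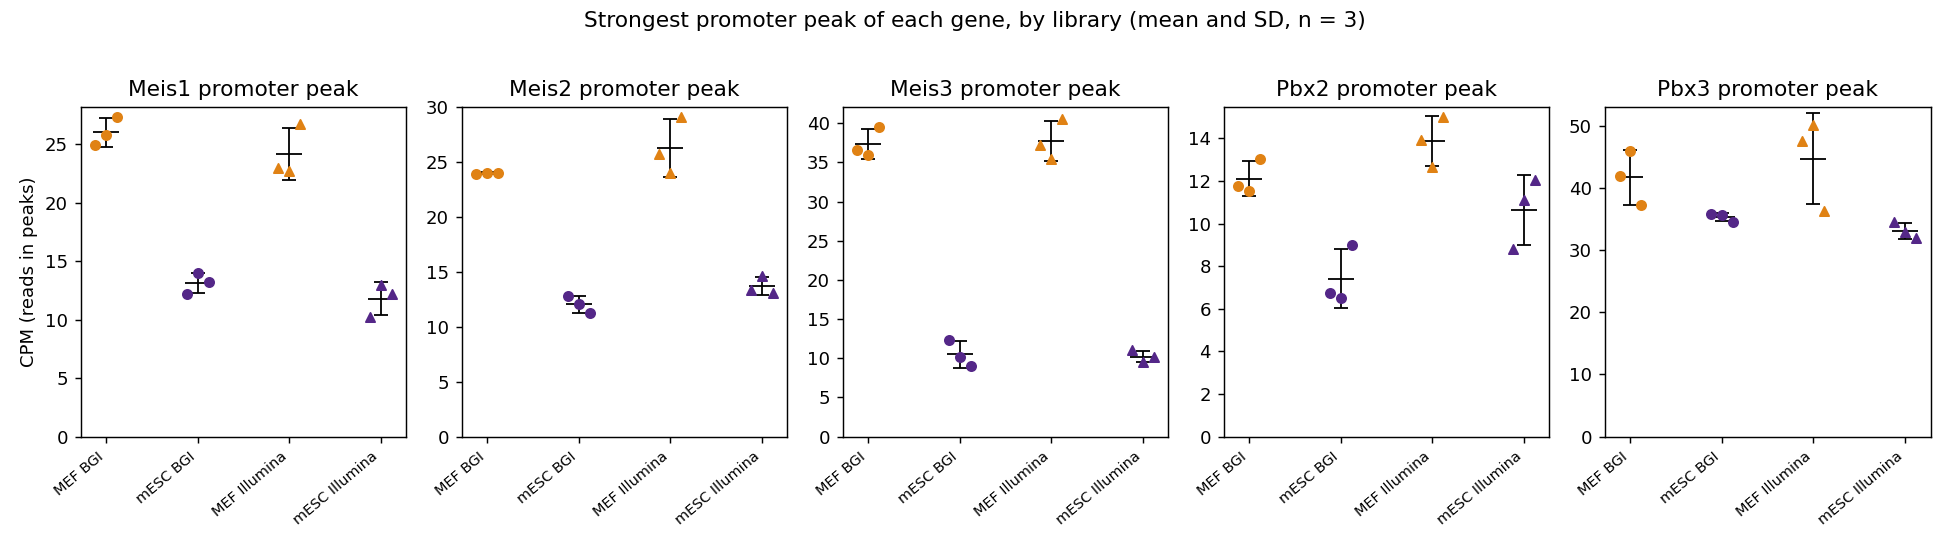
CPM (vertical axes, from 0) at the strongest promoter peak of each gene in the 3 samples of each group, with circles for BGI, triangles for Illumina, and bars for mean and SD. MEFs lie above mESCs in all 5 panels on both platforms, by a log2 fold change from -1.90 at Meis3 to -0.31 at Pbx3 on BGI.

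Within Meis1, 7 of the 8 intronic peaks on BGI were called lower in mESCs and 1 was called higher, where 46.8% and 43.9% of all 30514 intronic peaks were. The 29.8 kb peak, chr11:18988913-18989413, had 21.0, 22.4 and 18.3 CPM in MEFs and 1.39, 0.828 and 0.311 CPM in mESCs. This was the largest fall of any member peak, a log2 fold change of -4.67 (SE 0.27, adjusted p = 5.02e-11). The peak caller found a summit there in all 3 MEF samples, with fold enrichments over background of 27.0, 32.0 and 22.7, and in 0 mESC samples.

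The 61.4 kb peak, chr11:18957352-18957852, showed the reverse. It had 1.52, 2.29 and 1.89 CPM in MEFs and 27.0, 28.9 and 23.3 CPM in mESCs, a log2 fold change of 3.73 (SE 0.18, adjusted p = 4.97e-12). A summit was called in 1 of 3 MEF samples, with a fold enrichment of 2.87, and in all 3 mESC samples, with 34.5, 40.8 and 31.6. The groups did not overlap.

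The intronic peaks on both sides of it had more reads in MEFs. The 81.1 kb peak, chr11:18937639-18938139, had 11.03, 8.85 and 7.62 CPM in MEFs and 0.567, 0.710 and 0.373 CPM in mESCs (log2 fold change -4.11, SE 0.30, adjusted p = 9.11e-10). At the far end of the gene, the exonic peak chr11:18883460-18883960 had 7.99, 10.6 and 10.9 CPM in MEFs and 0.441, 0.591 and 1.18 CPM in mESCs (log2 fold change -3.79, SE 0.30, adjusted p = 2.34e-09). Both were called in every MEF sample and in 0 mESC samples by the peak caller.

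Of the other 5 intronic peaks of Meis1, described after their values were seen, 4 had a summit called in at least 2 mESC samples, and the 68.9 kb peak had one in 0. The 77.8 kb peak fell from a mean of 16.7 ± 2.15 CPM (SD, n = 3) in MEFs to 3.69 ± 1.16 CPM in mESCs, and the 98.2 kb peak from 10.3 ± 2.80 to 2.31 ± 0.313 CPM. At the 64.9 kb peak the groups overlapped, with 7.76, 6.96 and 2.94 CPM in MEFs and 2.59, 0.887 and 3.73 CPM in mESCs (log2 fold change -1.38, SE 0.40, adjusted p = 0.0043). MEF 4 was the lowest of the 3 MEF libraries at 7 of 7 intronic Meis1 peaks called lower on BGI and at 6 of 6 on Illumina, where the same libraries were read. Over all member peaks called lower, it was the lowest at 11 of 26 on BGI and at 14 of 29 on Illumina.

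**Figure D3:**
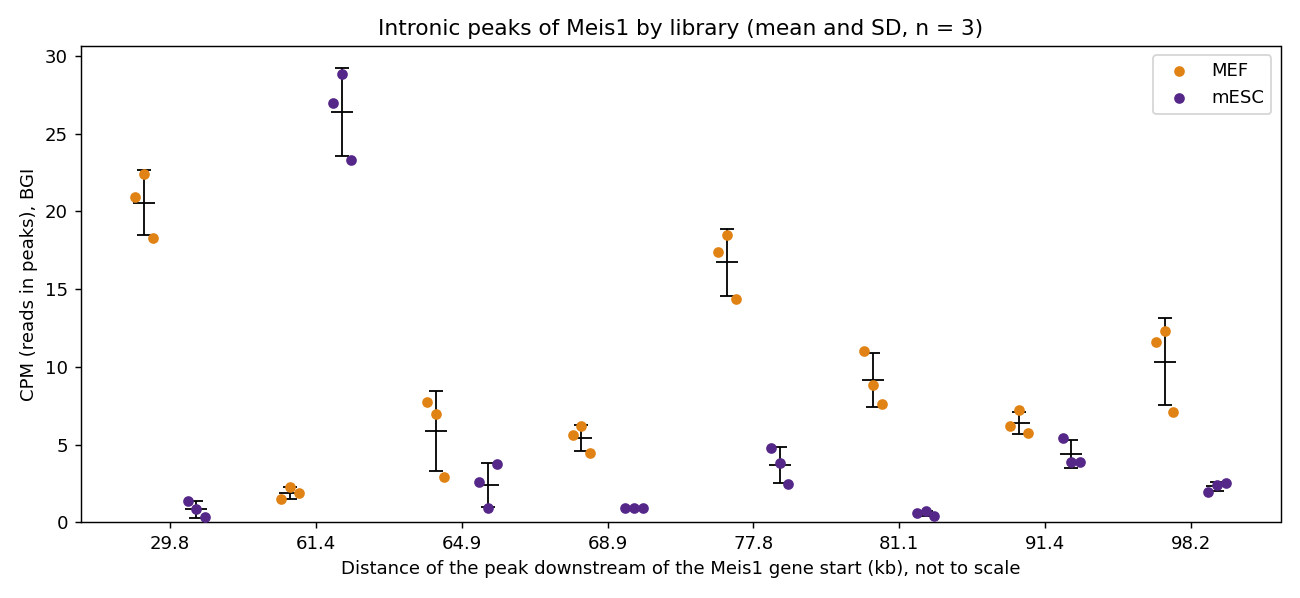
CPM on BGI (vertical axis, from 0) at the 8 intronic peaks of Meis1, ordered by distance downstream of the gene start in kb, for the 3 MEF and the 3 mESC samples with mean and SD. The 61.4 kb peak is the only one with mESCs above MEFs (23.3 to 28.9 against 1.52 to 2.29 CPM), and the 29.8 kb peak shows the widest gap in the other direction.

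The letters TGANTCA were found in 11 of the 54 member peaks on BGI (20.4%, against 25.2% of all peaks), so the members as a whole did not hold them more often. They sat in 7 of the 8 intronic Meis1 peaks and in 4 of the other 46 member peaks. All 7 held them within the central bases, as did 24.7% of all intronic peaks. None of the 25 member promoter peaks held them, against 13.2% of all promoter peaks. A match describes the letters in these windows and not the binding of a factor.

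Other motifs were searched on both strands of the whole peaks. TGACAG, the core bound by MEIS and TGIF proteins, was found in 11 member peaks (20.4%, all peaks 29.9%). TGATNNAT, bound by PBX together with Hox proteins, was found in 9 (16.7%, all peaks 15.1%). GGAATG, bound by TEAD factors, was found in 20 (37.0%, all peaks 31.7%) on BGI but in 16 (29.6%, all peaks 31.1%) on Illumina, and the octamer ATGCAAAT, bound by POU factors, in 2 on BGI (3.70%, all peaks 3.21%). TCAAGGTCA, bound by ESRRB, was found in 0 of 54 (all peaks 1.42%). In the MEF peak set merged over the platforms, the octamer also lay in the Meis1 91.4 kb peak, outside its central bases. That peak was more accessible in MEFs. The octamer in a Pbx3 intron lay in a peak that was higher in mESCs and is shown here in capitals within the central bases on the plus strand.
Pbx3 123 kb, chr2:34249615-34249815: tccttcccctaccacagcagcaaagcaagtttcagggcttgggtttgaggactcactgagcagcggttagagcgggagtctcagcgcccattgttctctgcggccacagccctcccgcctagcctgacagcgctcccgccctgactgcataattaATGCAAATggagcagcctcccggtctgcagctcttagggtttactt

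Pbx3 held that peak and 2 others far from its start. The 123 kb peak, chr2:34249465-34249965, had 12.1, 12.9 and 13.7 CPM in MEFs and 28.8, 26.1 and 28.0 CPM in mESCs (log2 fold change 1.03, SE 0.11, adjusted p = 1.24e-07). The 141 kb intronic peak, chr2:34231409-34231909, had 1.02, 1.19 and 0.597 CPM in MEFs and 8.95, 7.63 and 6.77 CPM in mESCs (log2 fold change 2.98, SE 0.29, adjusted p = 3.32e-08). The exonic peak 197 kb downstream, chr2:34175623-34176123, had 8.68, 6.91 and 5.63 CPM in MEFs and 0.946, 0.946 and 0.994 CPM in mESCs (log2 fold change -2.94, SE 0.29, adjusted p = 3.12e-08). Pbx3 thus had peaks of both directions within its body while its promoter peak moved least of the 5.

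Meis2 had its strongest mESC peak near the gene start. The intronic peak 5.47 kb downstream, chr2:116060124-116060624, had 7.29, 7.26 and 6.67 CPM in MEFs and 31.8, 38.0 and 33.7 CPM in mESCs (log2 fold change 2.22, SE 0.13, adjusted p = 3.34e-11). A neighbour at 4.76 kb, chr2:116060826-116061326, rose from 3.69, 3.73 and 3.44 CPM to 10.2, 8.10 and 11.99 CPM (log2 fold change 1.41, SE 0.20, adjusted p = 3.96e-06). Both peaks rose in the cell type in which the promoter peak was lower.

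Peaks open in MEFs lay on both sides of the Meis2 start. The intronic peak 95.3 kb downstream, chr2:115970315-115970815, had 6.60, 6.01 and 6.47 CPM in MEFs and 0.883, 1.30 and 0.497 CPM in mESCs (log2 fold change -2.88, SE 0.32, adjusted p = 1.47e-07). The peak 13.2 kb upstream, chr2:116078808-116079308, lay in an intron of the gene G630016G05Rik. It had 6.97, 8.002 and 3.68 CPM in MEFs and 0.504, 0.237 and 0.373 CPM in mESCs (log2 fold change -4.12, SE 0.41, adjusted p = 4.35e-08). MEF 4 was again the lowest MEF sample there, and the groups did not overlap.

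Meis3 is a short gene with Dhx34 and Slc8a2, an RNA helicase gene and a sodium/calcium exchanger gene, in the same window. The peak at an internal start site 8.78 kb downstream, chr7:16183619-16184119, had 2.08, 3.03 and 2.24 CPM in MEFs and 9.77, 10.4 and 10.8 CPM in mESCs (log2 fold change 2.002, SE 0.21, adjusted p = 9.56e-08). The peak 14.2 kb upstream, chr7:16160597-16161097, had 1.06, 1.39 and 1.34 CPM in MEFs and 8.76, 9.64 and 10.9 CPM in mESCs (log2 fold change 2.88, SE 0.24, adjusted p = 3.29e-09). This last peak lay in an exon of Slc8a2, and which gene it acts on was not measured.

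At Pbx2 most peaks belonged to other promoters. The window held 7 other protein-coding genes, and only 3 of the 10 BGI peaks lay within 1 kb of a Pbx2 start site. The strongest member peak of all, chr17:34603561-34604061, lay at the shared promoter of Agpat1, a gene of phospholipid synthesis, and Rnf5, a ubiquitin ligase gene. It had 107, 112.7 and 103 CPM in MEFs and 84.4, 95.8 and 85.7 CPM in mESCs, a log2 fold change of -0.35 (SE 0.08, adjusted p = 0.00102), and this call was lost with library sizes at the down-sampled depth (adjusted p = 0.0776).

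A peak at the Notch4 promoter, chr17:34587040-34587540, had 43.7, 39.9 and 42.3 CPM in MEFs and 25.4, 23.3 and 25.5 CPM in mESCs (log2 fold change -0.83, SE 0.09, adjusted p = 2.1e-07). Notch4 encodes a Notch receptor of blood vessels. In an intron of the same gene, 19.2 kb upstream of Pbx2, chr17:34571810-34572310 had 0.831, 1.29 and 1.34 CPM in MEFs and 7.63, 5.85 and 8.20 CPM in mESCs (log2 fold change 2.58, SE 0.28, adjusted p = 1.18e-07). The peak at the promoter of Gpsm3, chr17:34589588-34590088, was called higher in mESCs (log2 fold change 0.59, SE 0.23, adjusted p = 0.0244), but not without MEF 2 (adjusted p = 0.0849), without mESC 5 (adjusted p = 0.166) or with the Illumina samples counted on the same peaks (adjusted p = 0.124).

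Summed over its peaks, a locus gives 1 value per sample. The Meis1 sum on BGI was 235.4, 236 and 224 CPM in MEFs and 157, 149.7 and 148.6 CPM in mESCs, a log2 ratio of the means of -0.61. Reads shared by the overlapping peaks next to the Meis1 promoter peak can enter this sum more than once. The Meis2 sum was 115.6, 114.6 and 115.6 CPM in MEFs and 138, 151.3 and 146.4 CPM in mESCs, a log2 ratio of 0.33, and the ratio on Illumina was 0.15. Over the gene body alone, without the 20 kb on either side, the Meis2 ratio was 0.78 on BGI and 0.52 on Illumina, so its size depended on the window. The sums of the 2 genes moved in opposite directions in both windows, although both promoter peaks were lower in mESCs by nearly the same factor.

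The Meis3 sum had a log2 ratio of -0.40 on BGI and -0.54 on Illumina, and of -0.94 and -1.01 over the gene body alone. It was 47.9, 48.7 and 50.7 CPM in MEFs and 36.3, 35.8 and 39.1 CPM in mESCs, and the Pbx2 sum was 228, 228 and 234 CPM and 187, 207 and 203 CPM, a log2 ratio of -0.21. With library sizes at the down-sampled depth the Pbx2 ratio was -0.13 on BGI and -0.15 on Illumina, and the groups overlapped on both platforms. The Pbx3 sum was 72.0, 74.1 and 64.0 CPM in MEFs and 80.9, 76.6 and 76.0 CPM in mESCs on BGI, but 102, 103 and 89.5 CPM and 93.3, 89.6 and 86.3 CPM on Illumina, where the groups overlapped. The Illumina set held 6 Pbx3 peaks against 5, and the one without a BGI counterpart, chr2:34371958-34372458, had 14.7 ± 2.30 CPM (SD, n = 3) in mESCs and 21.4 ± 0.884 CPM in MEFs. Without it the Illumina sums were 81.4, 80.9 and 68.7 CPM in MEFs and 79.5, 72.3 and 73.3 CPM in mESCs, a log2 ratio of -0.04 with groups that overlapped, so a direction that depends on the platform was not shown. For the other 4 loci the sums had the same direction on both platforms.

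Calls made in each sample without the count tables gave a second readout from the same reads. The peak sets were themselves merged from such calls, so this readout was not independent of the count test. A summit was called inside the peak in all 6 BGI samples at 39 of the 54 member peaks (72.2%, all peaks 50.8%). It was called in all 3 MEF and 0 mESC samples at 7 (13.0%, all peaks 17.1%), in 0 MEF and all 3 mESC samples at 4 (7.41%, all peaks 18.6%), and in other combinations at 4 (7.41%, all peaks 13.5%). All 7 of the MEF peaks were called lower in mESCs by the count test. Of the 4 mESC peaks, 3 were called higher and 1 was not called. Of the 54 peaks, 41 were on the MEF list of high-confidence peaks (75.9%, all peaks 63.6%) and 36 on the mESC list (66.7%, all peaks 67.2%), with 23 on both (42.6%, all peaks 30.8%).

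Another 4 genes of the TALE class were counted beside the members. Pknox1, Pknox2, Tgif1 and Tgif2 had 62 peaks on BGI by the same rule, of which 33 were called higher in mESCs (53.2%, all peaks 40.9%) and 16 lower (25.8%, all peaks 43.2%), with a median log2 fold change of 0.87. On Illumina, 32 of 59 were higher (54.2%, all peaks 42.1%) and 16 lower (27.1%, all peaks 42.4%), with a median of 0.80. The difference between these genes and the members was not tested.

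On the platforms, the fold changes of matched peaks lay close together. Of the 54 BGI member peaks, 47 had an Illumina member peak that covered at least 50% of them. At 44 of these both platforms gave the same call, at 3 only 1 platform gave a call, and at 0 the calls were opposite. The same shares over all peaks were not computed, so these counts are not read as particular to the members. The difference of the log2 fold changes, BGI minus Illumina, ranged from -0.35 to 0.57 with a median of 0.06. Since the libraries were the same, this describes the reading of the libraries and not new samples.

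**Figure D4:**
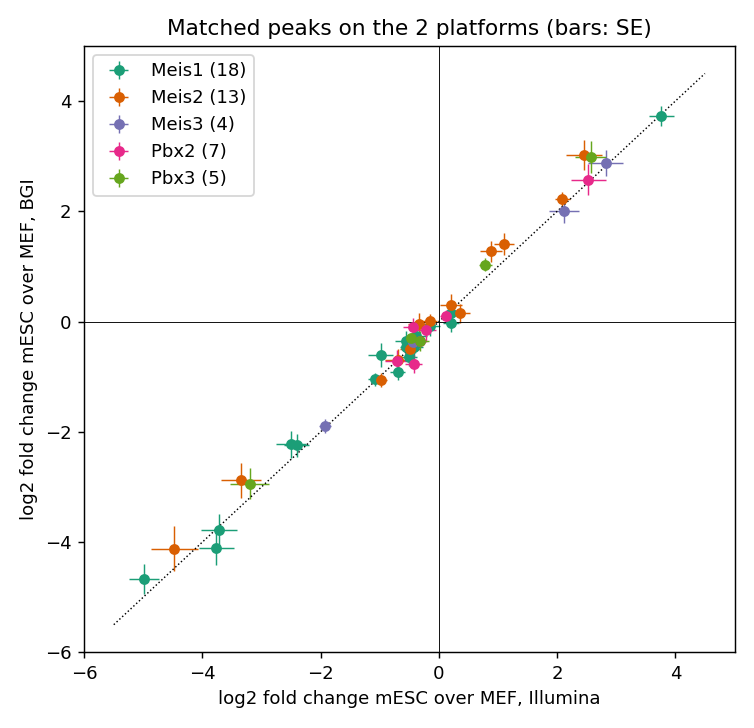
Log2 fold change of mESC over MEF on BGI (vertical axis) against Illumina (horizontal axis) for the 47 matched member peaks, with SE bars, 1 colour per locus and the line of equality dotted. The points follow the line from the Meis1 29.8 kb peak (-4.67 on BGI, -4.99 on Illumina) to the Meis1 61.4 kb peak (3.73 and 3.76).

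The difference between platforms was tested directly with all 12 samples counted on the BGI peaks and the library as a block. It was called at 1 of 54 member peaks (background 0.386% of all peaks), the Pbx3 promoter peak chr2:34372941-34373441, where the log2 fold change was 0.31 higher on BGI than on Illumina (SE 0.07, adjusted p = 0.0317). The fit carried a shift common to most peaks, with a median difference of 0.11 over all peaks and 0.19 over the members. In separate fits on this same peak the log2 fold changes were -0.31 with the BGI and -0.49 with the Illumina samples, a smaller gap. At an unadjusted p below 0.05, 11 of 54 passed (background 13.2%).

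Within 1 cell type, BGI was compared with Illumina on a peak set merged over the platforms. In MEFs, 0 of 46 member peaks were called higher on BGI (background 0.107%) and 1 was called lower (background 3.96%). At an unadjusted p below 0.05, 0 were higher (background 3.68%) and 6 lower (background 11.5%). DESeq2 called 0 higher and 4 lower, against 1.12% and 11.7% of the peaks to which it gave an adjusted p. The number lower was 0 without library 1, 0 without library 2 and 4 without library 4. With the library as replicate block, 2 were called higher (background 13.9%) and 9 lower (background 15.3%).

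In mESCs, 0 of 43 member peaks were called higher on BGI (background 0.0418%) and 1 was called lower (background 3.19%). At an unadjusted p below 0.05, 0 were higher (background 1.94%) and 6 lower (background 11.1%). DESeq2 called 0 higher and 1 lower, against 0.0756% and 4.76% of the peaks to which it gave an adjusted p. The number lower was 0 without library 1, 0 without library 3 and 0 without library 5. With the replicate block, 4 were called higher (background 5.78%) and 8 lower (background 15.6%).

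Both peaks called without the replicate block, named for their call after values were seen, were rich in G and C. With the block, the 2 peaks higher on BGI in MEFs lay under 50% GC. Of the 9 lower in MEFs, 5 lay from 50% to under 60% and 4 at 60% or more. In mESCs, 2 of the 4 higher lay under 50%, and 5 of the 8 lower lay at 60% or more. The MEF peak called without the block lay near a Pbx3 start site, chr2:34371958-34372458, with 82.2% GC. It had 9.92, 10.2 and 11.4 CPM on BGI and 20.9, 22.5 and 20.9 CPM on Illumina in libraries 1, 2 and 4, a log2 fold change of -1.05 (SE 0.11, adjusted p = 0.00523). Every library was lower on BGI, and the platforms did not overlap. Its central bases are shown with CG dinucleotides in capitals, since this peak had the highest GC content of all member peaks. The stretch shown had 80.1% GC and holds 36 CG dinucleotides.
Pbx3, chr2:34372108-34372308: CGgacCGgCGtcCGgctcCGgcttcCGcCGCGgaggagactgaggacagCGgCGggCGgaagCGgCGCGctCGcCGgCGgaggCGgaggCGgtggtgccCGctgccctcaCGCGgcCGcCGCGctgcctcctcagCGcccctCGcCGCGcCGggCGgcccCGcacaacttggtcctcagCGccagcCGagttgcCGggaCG
The mESC peak called without the block lay at the Notch4 promoter in the Pbx2 window, chr17:34587341-34587856, with 73.8% GC. It had 27.4, 26.7 and 27.4 CPM on BGI and 34.0, 36.1 and 35.5 CPM on Illumina in libraries 1, 3 and 5, a log2 fold change of -0.43 (SE 0.09, adjusted p = 0.0174).

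The platform difference moved with GC content over the members. In MEFs, the median log2 fold change of BGI over Illumina was 0.14 over the 14 member peaks under 50% GC, -0.10 over the 21 from 50% to under 60% and -0.18 over the 11 at 60% or more, all 11 of which were below 0. In mESCs, all 12 member peaks at 60% or more were below 0, with a median of -0.18, and the median was 0.02 over the 26 from 50% to under 60% and -0.11 over the 5 under 50%. Pearson's r was -0.733 over the 46 peaks in MEFs and -0.646 over the 43 in mESCs, and over all peaks -0.675 and -0.647. These correlations run across peaks that share the same libraries and are descriptions, and the part of GC content in the platform difference was not tested.

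**Figure D5:**
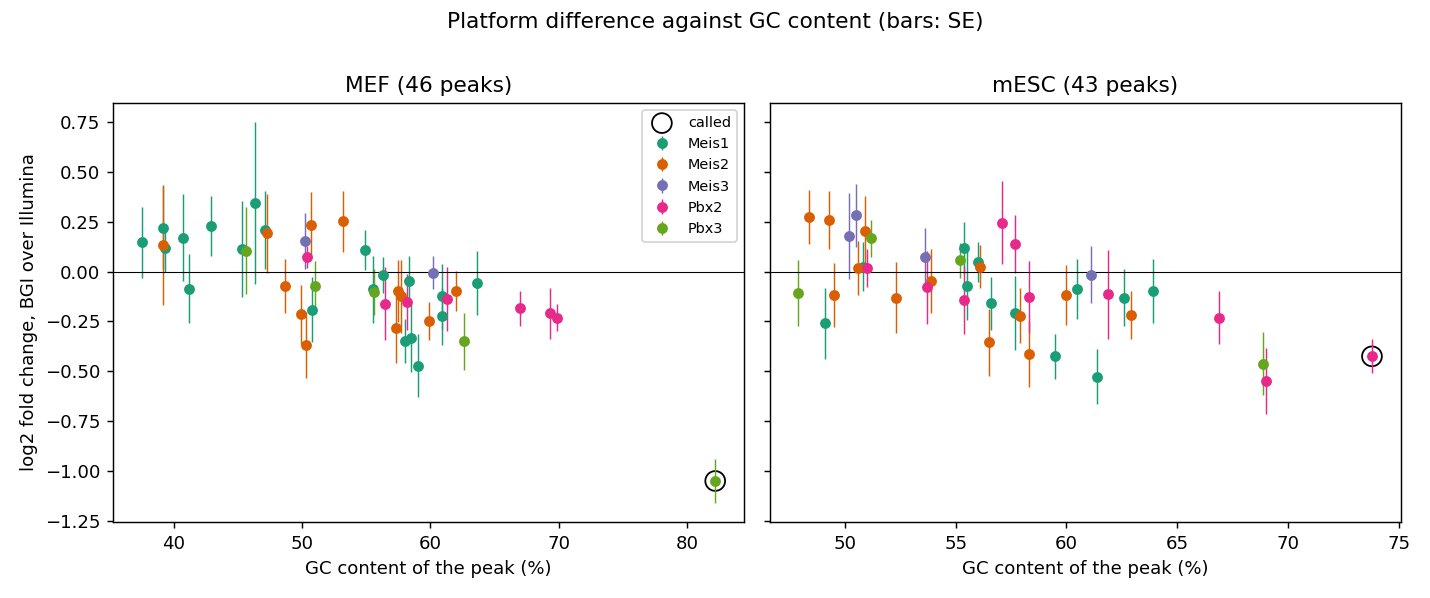
Log2 fold change of BGI over Illumina (vertical axis, error bars are SE) against the GC content of each member peak in percent (horizontal axis), for MEFs (46 peaks) and mESCs (43 peaks), with 1 colour per locus. A ring marks the peak called without the replicate block. The lowest point in MEFs is the Pbx3 peak with 82.2% GC, at -1.05.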

How the data were processed

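Omni-ATAC-seq was measured in 12 samples, 6 libraries read on 2 platforms. Per the study's methods, the authors trimmed Illumina reads from 150 to 100 bp, aligned to GRCm38/mm10, down-sampled each sample to a fixed number of reads per cell type, called peaks per sample with MACS2, extended summits to a fixed width and merged the samples. The deposited count tables hold raw read counts per peak. Their columns mark BGI samples by name, and the unmarked column of each library was read as its Illumina sample, because the Illumina peak file of that library uses the same unmarked name. Deposited per-sample peak files hold fold enrichment (a ratio) and −log10 p-values as the caller wrote them, and these gave the summit calls. Deposited peak lists of each cell type and platform hold positions only. The authors counted reads in peaks with the subread package.

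Here, CPM was computed over reads in peaks, and counts were tested with edgeR 4.0.16 (TMM, filterByExpr, quasi-likelihood F test, two-sided, Benjamini-Hochberg over all peaks), with R 4.3.3. DESeq2 1.42.0, other scalings, filters, gene windows and leaving out each library were alternatives, listed in the closing section. DESeq2 with the replicate block was chosen after seeing the data. Peak starts were shifted by 1 base so that coordinates count from 1. Named peaks were, at each locus, the strongest promoter peak and the 3 called peaks of lowest p in each direction on BGI. The members and lists were chosen with earlier results of these data known.

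Deviations from the group means correlated between platforms within each library (r from 0.618 to 0.836 in MEFs and from 0.514 to 0.723 in mESCs) and less between libraries (at most 0.297), so libraries pair the platforms, as the study's design states. MEFs and mESCs are not paired. The depth of 15860985 to 21662775 reads in peaks gave a median of 122 to 156 reads per peak.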

Additional observations from a re-analysis of the deposited data

Results flagged for a closer look

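The contrast between mESCs and MEFs differed between platforms at 1 member peak, the Pbx3 promoter peak chr2:34372941-34373441. The log2 fold change of mESC over MEF was 0.31 higher on BGI than on Illumina (edgeR interaction with the library as a block, adjusted p = 0.0317). The same fit gave a median difference of 0.11 over all peaks and 0.19 over the 54 member peaks, so part of this value was common to most peaks. In separate fits on this same peak, the log2 fold changes were -0.31 with the BGI samples and -0.49 with the Illumina samples. The libraries were shared between the platforms. The cause was not tested.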

How the results depend on the processing

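No named peak reversed its direction under any alternative run, and 269 of their recomputed values kept their side of the threshold. The remaining 7, at Pbx2 and Pbx3, are given in the report. The cause of the changes below was not tested. On BGI, 12 member peaks were higher in mESCs, 25 with a 50 kb extension and 7 with the nearest start site that of the member gene. There, 26 were higher in MEFs, 16 with a 0 kb extension, 13 with a log2 fold change of at least 1 and 10 with the nearest start site. On Illumina, the 11 higher in mESCs became 28 and 6 under the same 50 kb and nearest-start rules, and the 29 higher in MEFs became 17, 11 and 13 with a 0 kb extension, a change of at least 1 and the nearest start site. The extension and nearest-start rules change which peaks are counted. Without single libraries, the counts were 11 to 12 and 24 to 26 on BGI, and 11 to 12 and 28 to 31 on Illumina.

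Between platforms, 1 member peak was lower on BGI in MEFs. With the replicate block, which pairs the platforms by library, 2 were higher and 9 lower. DESeq2 gave 4 lower, also with the replicate block, and leaving out libraries gave 0 to 4. In mESCs, the replicate block gave 4 higher and 8 lower, DESeq2 with the replicate block gave 0 higher and 1 lower, the 0 kb extension gave 0 lower, and leaving out libraries gave 0 to 0 lower.

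The log2 ratios of the locus sums moved with a 0 kb extension and the down-sampled depth. From the values in the report, and -0.58, 0.15, -0.54 and -0.23 on Illumina for Meis1, Meis2, Meis3 and Pbx2, they became -0.90 and -0.54 for Meis1 on BGI and -0.79 and -0.50 on Illumina, 0.78 and 0.41 for Meis2 on BGI and 0.52 and 0.24 on Illumina, -0.94 and -0.33 for Meis3 on BGI, and -0.33 and -0.13 for Pbx2 on BGI and -0.52 and -0.15 on Illumina. For Meis3 on Illumina, the 0 kb extension gave -1.01. For Pbx3 on Illumina, the sum over matched peaks only, chosen after seeing the data, gave -0.0376. Within the central bases, GGAATG was in 10 member peaks on BGI (18.5% of members and 18.5% of all peaks) and 7 on Illumina (13.0% and 17.9%), TGACAG in 3 (5.56% and 13.4%) and 4 (7.41% and 13.3%), TGATNNAT in 4 (7.41% and 5.90%) and 3 (5.56% and 5.65%), and ATGCAAAT in 1 (1.85% and 1.81%) and 1 (1.85% and 1.77%).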
